A study of Mus musculus with 8 samples.

Results

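Secreted growth factors that macrophages can make were followed in bone marrow-derived macrophages (BMDM), cells grown in culture from bone marrow, with and without deletion of Opa1. The set holds 9 genes, chosen by symbol among the 24421 gene symbols of the count files, namely Igf1, Vegfa, Vegfb, Pdgfa, Pdgfb, Hbegf, Tgfa, Osm and Lif, and all 9 were found. CKO macrophages came from OPA1f/f mice that also carry Lyz2-Cre, a Cre recombinase expressed in myeloid cells from the Lyz2 locus (4 libraries, replicates 2, 6, 7 and 8). FLOX macrophages came from OPA1f/f mice, which have the loxP-flanked allele without the driver (4 libraries, replicates 3, 4, 6 and 7). Both groups had 24 h of IL-4, the cytokine of alternative activation, so all values are those of stimulated cells. OPA1 is a GTPase of the inner mitochondrial membrane, and the study asked how transcription in these macrophages depends on it. Deletion and driver come together in CKO and cannot be told apart. The labels do not say which libraries come from separate mice, so the p-values reflect library-to-library spread alone, which may be technical.

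The 9 genes belong to several families of ligands that act on neighbouring cells. Insulin-like growth factor 1 (Igf1) acts through the receptor kinase of Igf1r and is known in macrophages as a product of alternative activation that acts in tissue repair. The vascular endothelial growth factor of Vegfa binds the endothelial receptors of Flt1 and Kdr, and that of Vegfb binds the product of Flt1 but not that of Kdr. The platelet-derived growth factor chains of Pdgfa and Pdgfb pair into dimers that bind the receptors of Pdgfra and Pdgfrb on mesenchymal cells. The products of Hbegf and Tgfa are made as membrane-bound precursors that proteases such as ADAM17 release as ligands of the EGF receptor. Oncostatin M (Osm) and leukemia inhibitory factor (Lif) are cytokines that signal through the shared receptor subunit gp130, the product of Il6st.

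Each library had 11764855 to 18939948 read pairs assigned to genes, and levels are given as CPM, the count scaled to a common library size (TMM). Lyz2, which holds the driver, was far lower in every CKO library (1809 to 2387 CPM in CKO, 6906 to 8294 CPM in FLOX). Opa1 as a whole gene stood at 94.6 to 104.6 CPM in CKO versus 103.6 to 130.4 CPM in FLOX (edgeR adjusted p = 0.0544), and gene totals do not resolve single exons. Over all genes the first principal component (70.2% of the variance) parted the groups. The second (12.7%) had FLOX replicates 3 and 6 on one side and 4 and 7 on the other. The defining macrophage genes were present in all libraries, with a summed level of 6900 to 7434 CPM over 8 markers in CKO and 7649 to 8065 CPM in FLOX. At an edgeR adjusted p under 0.05, 3 of them were lower in CKO and 1 higher, and 4 were not called. Lower were Csf1r (log2 fold change -0.42), Cd68 (-0.48) and Mertk (-0.78), and Fcgr1 (1.04) was higher. Over all tested genes 45.4% were called. The extraction text of the labels speaks of islets, but 7 of 8 islet markers, both insulin genes included, had 0 counts in all 8 libraries.

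Levels of the growth factor genes spread over a wide range, with Igf1 far above the others. Divided by the length of their annotated exons, Igf1 stood at 136.5 ± 3.20 CPM per kb in CKO and 152 ± 12.1 CPM per kb in FLOX (SD, n = 4 each). Igf1 ranked 40 to 48 among all gene symbols by count in the CKO libraries and 38 to 57 in the FLOX libraries. Vegfb came next with 18.3 ± 1.62 CPM per kb in CKO and 22.8 ± 3.36 CPM per kb in FLOX. In CKO the order then ran Vegfa (5.37 CPM per kb), Pdgfa (4.97), Pdgfb (3.65), Osm (2.97) and Hbegf (1.15). In FLOX it ran Pdgfa (7.03 CPM per kb), Vegfa (5.75), Osm (3.24), Pdgfb (2.23) and Hbegf (0.614). The ranges of Vegfa and Pdgfa overlapped in both groups, so their order is not resolved in either. Pdgfb and Osm overlapped in CKO, whereas in FLOX every library had less Pdgfb than the lowest Osm value per kb. Tgfa and Lif were close to nothing in both groups.

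**Figure D1:**
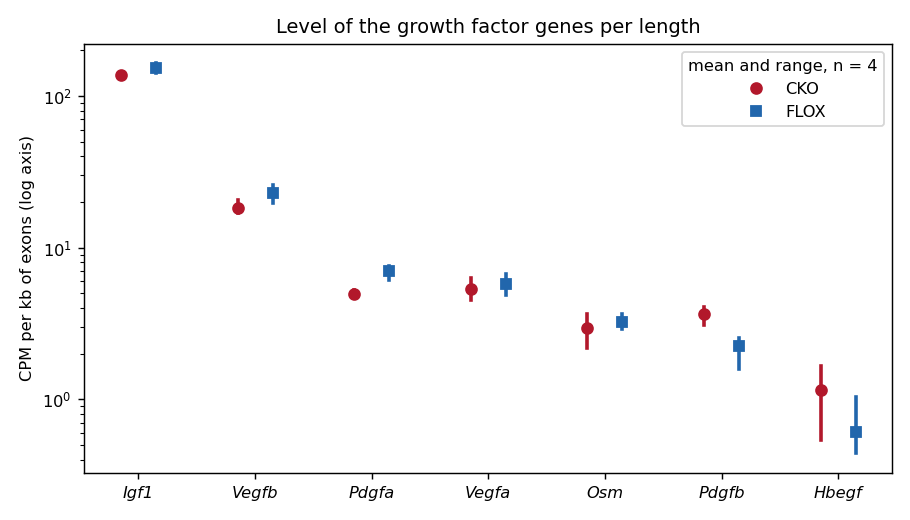
Level of the 7 growth factor genes with enough counts to test, in CPM per kb of annotated exons on a log axis, as the mean (point) and range (bar) of 4 CKO and 4 FLOX libraries. Igf1 lies at 136.5 and 152 CPM per kb, and Pdgfb lies above Osm in CKO and below it in FLOX.

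Of the 9 genes, 7 had enough counts to be tested and 4 of these passed an edgeR adjusted p of 0.05: Pdgfb and Hbegf were higher and Pdgfa and Vegfb lower in CKO. Over all 11519 tested genes 45.4% passed, 23.8% higher and 21.6% lower in CKO, so 4 of 7 is near the share of all genes and says nothing particular about growth factors. The median log2 fold change of the 7 was -0.11, against -0.02 over all tested genes. No difference was above 1.94-fold. Only those of Pdgfa and Pdgfb were called under all 18 alternative settings. The RNA is of whole cultures, where fewer producing cells and less RNA per cell cannot be told apart.

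**Figure D2:**
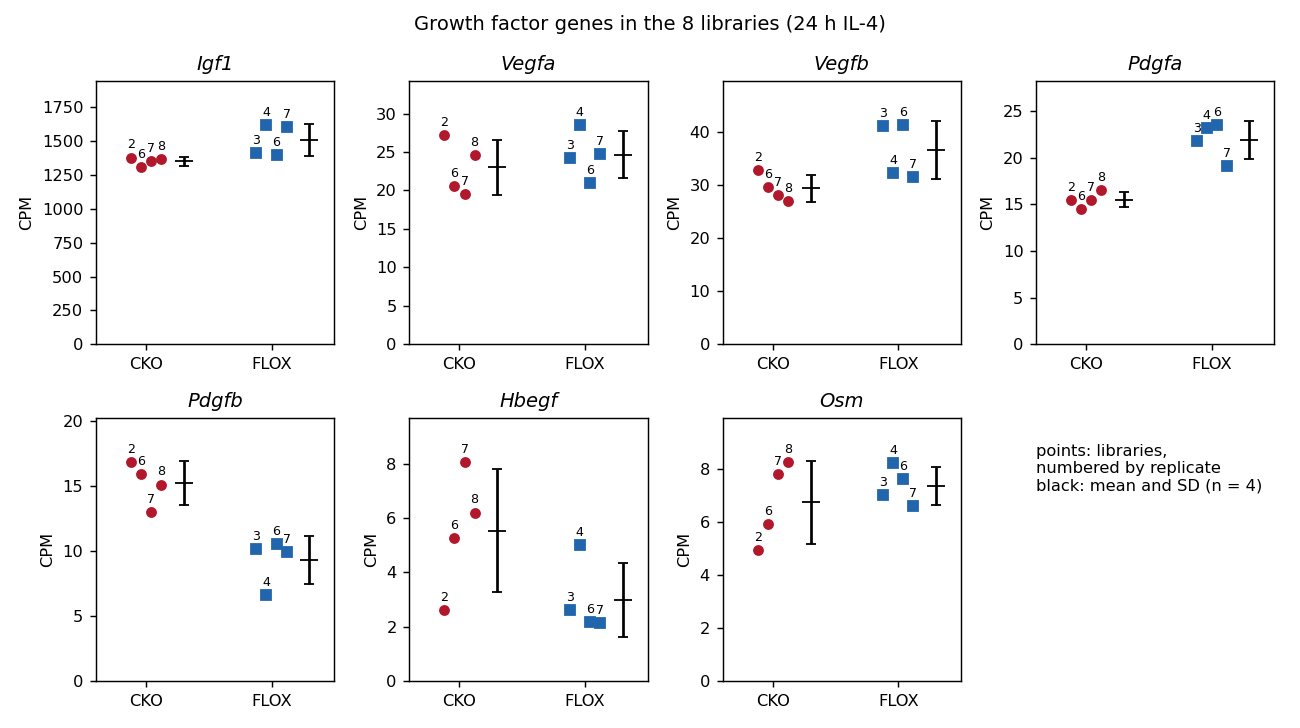
Level of the 7 tested growth factor genes in CPM in each library (points, numbered by replicate), with the mean and SD of 4 libraries per group in black. CKO and FLOX libraries do not overlap for Igf1, Pdgfa and Pdgfb, and Vegfb parts FLOX replicates 3 and 6 from the other FLOX libraries.

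The platelet-derived growth factor chains moved in opposite directions. Pdgfb (ENSMUSG00000000489, chromosome 15, 79995874 to 80014977, mm10) encodes the B chain. It stood at 16.9, 15.9, 12.9 and 15.1 CPM in CKO replicates 2, 6, 7 and 8, against 10.1, 6.58, 10.5 and 9.94 CPM in FLOX replicates 3, 4, 6 and 7. Every CKO library was above every FLOX library. The mean was 15.2 ± 1.66 CPM in CKO versus 9.29 ± 1.82 CPM in FLOX (SD, n = 4 each), and Pdgfb was called higher in CKO (log2 fold change 0.70 with SE 0.14 and adjusted p = 0.00125 in edgeR). The 95% interval ran from 128.5% to 204.4% of FLOX. FLOX replicate 4 was the lowest library, and without it the log2 fold change was 0.57 (edgeR adjusted p = 0.00119).

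Pdgfa (ENSMUSG00000025856, chromosome 5, 138976014 to 138997370, mm10) encodes the A chain and was lower in CKO. The CKO libraries had 15.5, 14.5, 15.5 and 16.5 CPM in replicates 2, 6, 7 and 8, and the FLOX libraries 21.8, 23.2, 23.5 and 19.1 CPM in replicates 3, 4, 6 and 7. The groups did not overlap. Pdgfa stood at 70.6% of FLOX with a 95% interval from 61.0% to 81.8% (log2 fold change -0.50 with SE 0.09 and adjusted p = 0.000497 in edgeR). An annotated antisense gene, 6330403L08Rik, shares 813 of the 3119 exon bases of Pdgfa. The strand setting of the counting is not given in the sources used here, so reads of that gene may be part of the Pdgfa count. Reads of Pdgfa in the shared bases may instead have been set aside as ambiguous.

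The count of Pdgfb divided by that of Pdgfa in the same library does not depend on library scaling. The ratio was 1.09, 1.10, 0.837 and 0.914 in CKO replicates 2, 6, 7 and 8, against 0.463, 0.283, 0.447 and 0.520 in FLOX replicates 3, 4, 6 and 7. All CKO libraries were above all FLOX libraries. The log2 ratio averaged -0.03 ± 0.19 in CKO and -1.26 ± 0.39 in FLOX (SD, n = 4 each), a difference of 1.22 (two-sided exact permutation p = 0.0286, the smallest that 70 splits allow). Adjusted over the 2 ratios computed, which were chosen after the values were seen, p is 0.0571 by the same exact permutation test. Since the genes differ in length, only the change between libraries is to be read from the ratio.

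**Figure D3:**
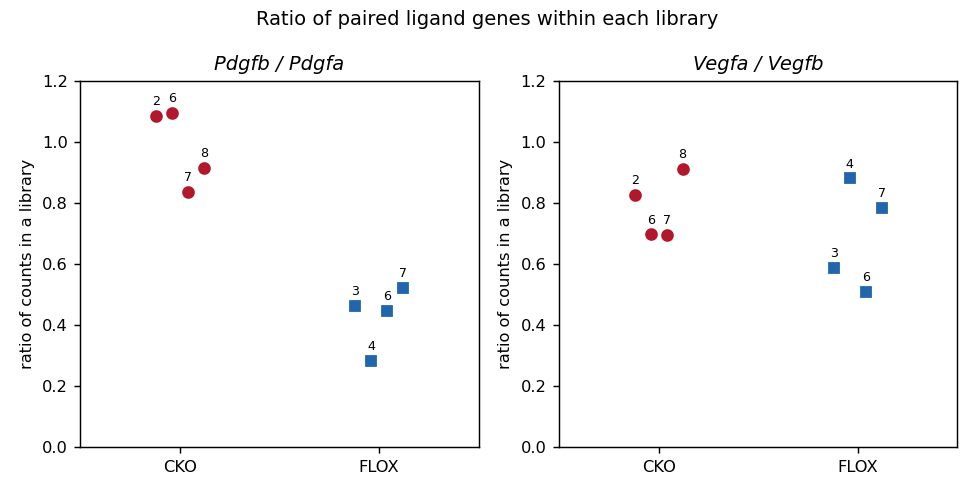
Ratio of counts of Pdgfb to Pdgfa (left) and of Vegfa to Vegfb (right) in each library, CKO as circles and FLOX as squares, numbered by replicate. The Pdgfb/Pdgfa ratio is 0.837 to 1.10 in CKO and 0.283 to 0.520 in FLOX, with no overlap, whereas the Vegfa/Vegfb ratios of the groups overlap.

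Other PDGF and VEGF genes also went both ways. Of 12 genes in a list of further ligands and receptors of both families, 7 were tested, of which 4 rose and 1 fell in CKO, where 23.8% of all tested genes were higher and 21.6% lower. Pdgfc, which encodes another PDGF ligand, fell (12.7 ± 1.39 CPM in CKO versus 21.9 ± 1.65 CPM in FLOX, SD, n = 4 each; log2 fold change -0.79 with SE 0.09 and adjusted p = 2.72e-05 in edgeR). Vegfc, a growth factor of lymphatic vessels, rose (10.9 ± 1.25 CPM in CKO versus 6.14 ± 0.929 CPM in FLOX; log2 fold change 0.82 with SE 0.13 and adjusted p = 0.000242 in edgeR). Placental growth factor (Pgf), named after its value was seen, rose too (1.01 ± 0.130 CPM in CKO versus 0.512 ± 0.171 CPM in FLOX; log2 fold change 0.96, edgeR adjusted p = 0.0145). Among receptors, Kdr (log2 fold change 0.61) and the co-receptor gene Nrp1 (0.40) rose, while Flt1, a receptor that monocytes and macrophages are known to carry, was at 190 ± 11.9 CPM in CKO versus 185.5 ± 26.1 CPM in FLOX (log2 fold change 0.04, 95% interval -0.19 to 0.26). The PDGF receptors were too low to test, with 1 count of Pdgfra and 30 of Pdgfrb over the 4 CKO libraries and 2 and 33 over the 4 FLOX libraries.

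Vegfb (ENSMUSG00000024962, chromosome 19, 6982473 to 6987651, mm10), whose product binds Flt1, was lower in CKO, though FLOX libraries differed among themselves. It stood at 32.9, 29.6, 28.1 and 27.0 CPM in CKO replicates 2, 6, 7 and 8. In FLOX replicates 3 and 6 it stood at 41.2 and 41.4 CPM, and in FLOX replicates 4 and 7 at 32.4 and 31.6 CPM, just below the highest CKO library. The ranges therefore overlapped. Vegfb stood at 79.9% of FLOX with a 95% interval from 67.0% to 95.3% (log2 fold change -0.32 with SE 0.10 and adjusted p = 0.0225 in edgeR). The call was lost without CKO replicate 6 (edgeR adjusted p = 0.0593), 7 (0.0775) or 8 (0.0846) and without FLOX replicate 3 (0.0522) or 6 (0.0679). With both FLOX replicates 3 and 6 left out the log2 fold change was -0.13 (edgeR adjusted p = 0.229).

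Vegfa (ENSMUSG00000023951, chromosome 17, 46016993 to 46032369, mm10), the main angiogenic factor of the family and a textbook target of the hypoxia factor HIF-1, was not called. It stood at 27.2, 20.6, 19.5 and 24.6 CPM in CKO replicates 2, 6, 7 and 8, against 24.3, 28.5, 21.0 and 24.8 CPM in FLOX replicates 3, 4, 6 and 7. The groups overlapped over most of their range. The log2 fold change was -0.10 (with SE 0.12 and adjusted p = 0.511 in edgeR), and its 95% interval from 76.3% to 114% of FLOX leaves room for changes of about that size either way. The Vegfa/Vegfb ratio was 0.827, 0.697, 0.695 and 0.913 in CKO replicates 2, 6, 7 and 8, against 0.588, 0.881, 0.508 and 0.784 in FLOX replicates 3, 4, 6 and 7 (two-sided exact permutation p = 0.371). In that ratio too FLOX replicates 3 and 6 lay apart from 4 and 7.

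Other genes of the HIF pathway were called in both directions. Of 18 tested genes in that list 9 rose and 4 fell in CKO, with a median log2 fold change of 0.22. Those with the smallest p were the collagen hydroxylase genes P4ha2 (log2 fold change 1.34, edgeR adjusted p = 2.03e-06) and P4ha1 (0.55, edgeR adjusted p = 5.36e-06), the glucose transporter gene Slc2a1 (0.78, edgeR adjusted p = 2.43e-06) and Pdk1 (0.68, edgeR adjusted p = 7.22e-06), which encodes a kinase that restrains pyruvate entry into mitochondria. Slc2a1 stood at 51.3 ± 2.95 CPM in CKO versus 29.9 ± 1.42 CPM in FLOX (SD, n = 4 each). Whether the change of Vegfa differs from that of these genes was not tested. Over all tested genes 23.8% were higher and 21.6% lower. The 4 that fell, named after their values were seen, were Arnt (-0.28), Epas1 (-0.45), Pfkfb3 (-0.38) and Vhl (-0.30). Epas1, Pfkfb3 and Vhl lost their calls without CKO replicate 2 (edgeR adjusted p of 0.0640, 0.0667 and 0.0844) and without FLOX replicate 4 (0.0506, 0.0590 and 0.0674). At least 1 of the 3 also lost its call without CKO replicate 6, 7 or 8 or FLOX replicate 7, while Arnt kept its call with each library left out in turn.

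The promoter windows of the VEGF genes and of Pdgfa are shown because they are the stretches of these genes where a shared or missing motif can be looked up. They are the 250 bases before the most upstream start in RefSeq on GRCm38.p6, read 5′ to 3′ on the strand of the gene. For Pdgfa and Igf1 that start lies inside the gene span given here from GENCODE, whose annotated gene begins farther upstream, so those windows do not lie before the outermost annotated start. Capitals mark the GC box, searched as GGGCGG on both strands (CCGCCC on the other), where matches may overlap. The windows of Vegfa and Pdgfa had 2 matches each and that of Vegfb had 4, while the window of Igf1 had 0, and 32.7% of 32851 windows of this length held at least 1. The core letters of the HIF response element, ACGTG on both strands (CACGT on the other), were in none of these 4 windows and in 16.6% of all, which says nothing about sites farther away.
Vegfa (chr17:46032378-46032627, strand -): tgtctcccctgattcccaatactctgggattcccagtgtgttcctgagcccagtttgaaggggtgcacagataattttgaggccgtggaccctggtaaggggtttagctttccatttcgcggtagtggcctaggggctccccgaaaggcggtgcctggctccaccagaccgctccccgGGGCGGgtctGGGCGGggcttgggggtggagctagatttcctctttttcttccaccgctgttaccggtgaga
Vegfb (chr19:6987652-6987901, strand -): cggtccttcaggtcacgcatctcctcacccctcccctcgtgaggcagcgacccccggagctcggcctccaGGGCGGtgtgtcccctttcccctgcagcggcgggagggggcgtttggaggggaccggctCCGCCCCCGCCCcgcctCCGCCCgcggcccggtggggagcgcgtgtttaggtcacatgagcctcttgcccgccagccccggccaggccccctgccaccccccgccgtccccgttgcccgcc
Pdgfa (chr5:138994945-138995194, strand -): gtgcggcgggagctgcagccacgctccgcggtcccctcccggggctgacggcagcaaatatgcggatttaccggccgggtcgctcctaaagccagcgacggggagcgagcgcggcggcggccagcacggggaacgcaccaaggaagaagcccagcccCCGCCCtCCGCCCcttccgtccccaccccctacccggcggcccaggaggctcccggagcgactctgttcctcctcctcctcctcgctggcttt
Vegfb and Pdgfa, which were both lower in CKO, share the GC box with Vegfa, which was not called. The window of Tgfa, a gene with nearly no counts, had 2 matches and that of Lif had 0. Windows of Pdgfb, Hbegf and Osm were not searched, so neither member called higher in CKO is part of this comparison.

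Igf1 (ENSMUSG00000020053, chromosome 10, 87858265 to 87937042, mm10) averaged lower in CKO without passing the test. It stood at 1380, 1308, 1352 and 1369 CPM in CKO replicates 2, 6, 7 and 8, against 1414, 1621, 1396 and 1602 CPM in FLOX replicates 3, 4, 6 and 7. All CKO libraries were below all FLOX libraries, and 42.7% of all tested genes likewise had no overlap of ranges. FLOX replicates 3 and 6 were close to CKO and FLOX replicates 4 and 7 higher. The log2 fold change was -0.16 (with SE 0.07 and adjusted p = 0.0744 in edgeR), and the gene stood at 89.6% of FLOX (95% interval 80.0% to 100.5%). The gene was called lower, at a log2 fold change of -0.19, when FLOX replicate 3 (edgeR adjusted p = 0.0343) or 6 (edgeR adjusted p = 0.0454) was left out, as also without both (-0.25, edgeR adjusted p = 0.000758), and by DESeq2 (DESeq2 adjusted p = 0.0441). Igf1 made up 93.2% to 93.6% of the summed CPM of the 9 genes in CKO and 92.9% to 94.5% in FLOX.

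Igf1 is also known from stromal cells. Of 10 stromal and endothelial markers only Pecam1, which myeloid cells express too, had enough counts to be tested, and it was higher in CKO (11.6 ± 0.888 CPM in CKO versus 7.21 ± 0.611 CPM in FLOX, SD, n = 4 each). The summed level of that list was 12.6 to 15.0 CPM in CKO versus 8.20 to 9.68 CPM in FLOX. Lum and Cldn5 had 0 counts in all libraries. The other 7 were too low to test, with summed counts over the CKO and over the FLOX libraries of 52 and 30 for Col1a2, 25 and 15 for Col1a1, 12 and 7 for Cdh5, 30 and 33 for Pdgfrb, 2 and 1 for Dcn, 1 and 1 for Col3a1 and 1 and 2 for Pdgfra. The part of such cells in the Igf1 values was not tested.

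Of 16 listed genes of the insulin-like growth factor axis 5 were tested, of which 1 fell and none rose, where 45.4% of all tested genes were called and 21.6% were lower. Igf1r fell (4.86 ± 0.967 CPM in CKO versus 7.43 ± 1.77 CPM in FLOX, SD, n = 4 each; log2 fold change -0.60 with SE 0.19 and adjusted p = 0.0195 in edgeR). The call was lost without CKO replicate 2 (edgeR adjusted p = 0.0712) or 6 (0.0629) and without FLOX replicate 7 (0.0524). Irs2, an adaptor of both the insulin and the IGF1 receptor, had a log2 fold change of -0.55 (edgeR adjusted p = 0.0825), and the insulin receptor gene Insr -0.16 (0.307). Igf2r, which encodes the receptor that removes IGF2 and carries lysosomal enzymes, stood at -0.13 (0.292).

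**Figure D4:**
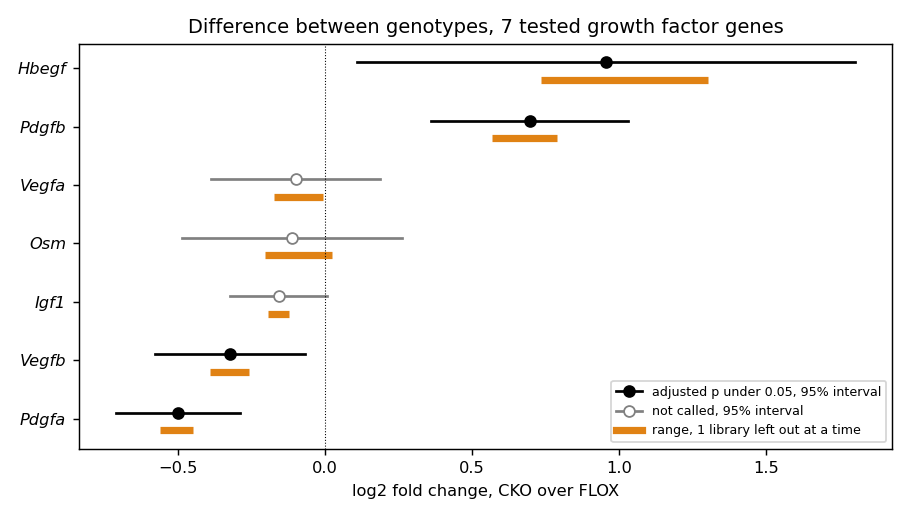
Log2 fold change of CKO over FLOX for the 7 tested growth factor genes with 95% intervals (filled points passed an edgeR adjusted p of 0.05) and, in orange, the range when 1 library at a time is left out. Hbegf has the widest interval, from 0.11 to 1.80, and Osm is the gene whose orange range crosses 0.

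Hbegf (ENSMUSG00000024486, chromosome 18, 36504927 to 36515805, mm10), the heparin-binding member of the EGF family, was higher in CKO on average but varied more than any other tested member. It stood at 2.60, 5.27, 8.08 and 6.20 CPM in CKO replicates 2, 6, 7 and 8, from 31, 80, 131 and 92 counts. FLOX replicates 3, 4, 6 and 7 had 2.59, 4.99, 2.16 and 2.13 CPM, from 37, 66, 40 and 30 counts. CKO replicate 2 lay at the FLOX level and FLOX replicate 4 within the CKO range. The log2 fold change was 0.96 (with SE 0.35 and adjusted p = 0.0445 in edgeR), with a 95% interval from 107.7% to 349.3% of FLOX and a biological coefficient of variation of 32.0%, against 8.77% over all genes.

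The Hbegf call depended on single libraries. It was lost without CKO replicate 6 (edgeR adjusted p = 0.0775), 7 (0.133) or 8 (0.101) and without FLOX replicate 3 (0.0677), 6 (0.123) or 7 (0.0935). It was kept without CKO replicate 2 (log2 fold change 1.19, edgeR adjusted p = 0.00641) or FLOX replicate 4 (1.30, edgeR adjusted p = 0.0082). With all genes kept irrespective of their counts, and with limma-voom, Hbegf was not called (adjusted p = 0.112 from edgeR and 0.0518 from limma-voom).

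Tgfa (ENSMUSG00000029999, chromosome 6, 86195223 to 86275719, mm10), the other EGF family member of the set, had 1 count in CKO replicate 8 and 0 in the other 7 libraries. A count of 0 allows up to 3 counts, or 0.158 to 0.255 CPM of assigned pairs in these libraries, so a level below that cannot be told from none. Of the other EGF family ligands in the list, Areg and Ereg had 0 counts in every library.

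Genes that handle EGF family ligands on the cell surface were called in both directions. Of 9 tested genes in that list of 17, 4 fell and 1 rose, and 5 of 9 is near the 45.4% called over all tested genes. Cd9, a tetraspanin known to associate with membrane-bound HB-EGF, fell (588 ± 42.2 CPM in CKO versus 1004 ± 86.5 CPM in FLOX, SD, n = 4 each; log2 fold change -0.77 with SE 0.08 and adjusted p = 6.69e-06 in edgeR). The sheddase gene Adam17 fell by 0.47 on the log2 scale (with SE 0.08 and adjusted p = 5e-04 in edgeR) and Rhbdf2, which encodes its trafficking partner iRhom2, by 0.58 (with SE 0.08 and adjusted p = 7.13e-05 in edgeR). Adam10, a related sheddase gene, rose (384 ± 29.4 CPM in CKO versus 304 ± 34.5 CPM in FLOX; log2 fold change 0.34 with SE 0.09 and adjusted p = 0.00657 in edgeR). The remaining fall was the neuregulin gene Nrg2 (-0.53), named after its value was seen. Egfr was at 0.838 ± 0.411 CPM in CKO versus 0.826 ± 0.194 CPM in FLOX, and Erbb4 had 0 counts in every library.

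Osm (ENSMUSG00000058755, chromosome 11, 4236420 to 4241026, mm10) did not pass the test. It stood at 4.95, 5.93, 7.83 and 8.29 CPM in CKO replicates 2, 6, 7 and 8, against 7.01, 8.25, 7.61 and 6.60 CPM in FLOX replicates 3, 4, 6 and 7. The CKO values enclosed those of FLOX. The log2 fold change was -0.11 (with SE 0.15 and adjusted p = 0.574 in edgeR), and its 95% interval ran from 71.3% to 120% of FLOX. Lif (ENSMUSG00000034394, chromosome 11, 4257557 to 4272514, mm10), the neighbouring gene of the same family, had 1 count in each of CKO replicates 6 and 7, 1 in each of FLOX replicates 4 and 6, and 0 in the other 4 libraries.

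Genes of gp130 signalling were lower in CKO or not called. Of 10 tested genes in that list of 18, 7 fell and none rose, with a median log2 fold change of -0.34, against 21.6% lower over all tested genes. The shared receptor gene Il6st fell (275 ± 4.84 CPM in CKO versus 386 ± 87.6 CPM in FLOX, SD, n = 4 each; log2 fold change -0.49 with SE 0.13 and adjusted p = 0.0104 in edgeR). Il11ra1, which encodes the interleukin 11 receptor chain, fell by 0.95 (edgeR adjusted p = 7.39e-06), Il6ra by 0.50 (edgeR adjusted p = 0.00914) and the signal transducer gene Stat3 by 0.42 on the log2 scale (edgeR adjusted p = 0.000361). The number of falls was 4 without CKO replicate 6. The LIF receptor gene Lifr stood at 41.2 ± 2.63 CPM in CKO versus 41.7 ± 6.41 CPM in FLOX (log2 fold change -0.02, 95% interval -0.26 to 0.22), and Osmr had 2 counts over the CKO and 1 over the FLOX libraries.

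**Figure D5:**
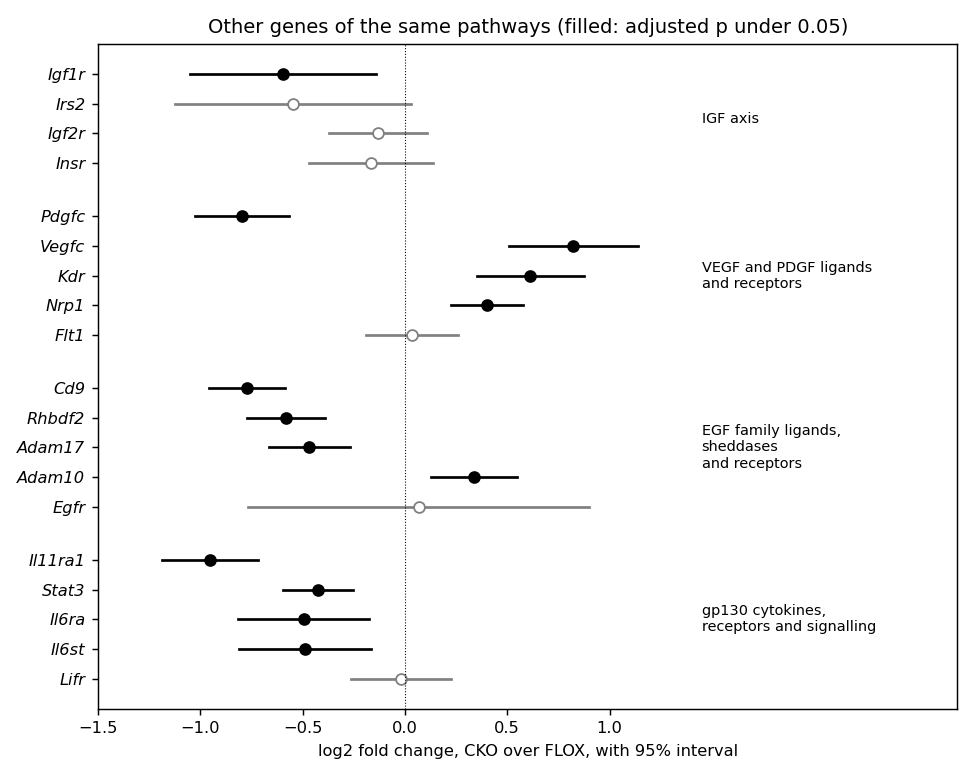
Log2 fold change of CKO over FLOX with 95% intervals for other genes of the ligand families, grouped in 4 lists. Shown are the 4 of smallest p in each list and the main receptor genes. Filled points passed an edgeR adjusted p of 0.05. All called gp130 genes shown lie below 0, and Vegfc, Kdr and Nrp1 lie above it.

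Of 16 tested genes in a list of 22 other secreted factors of macrophages, 10 fell and 4 rose in CKO, with a median log2 fold change of -0.32. Over all tested genes 21.6% were lower and 23.8% higher. With each library left out in turn, 7 to 11 genes of the list fell and 3 to 4 rose. Gas6, a bridging ligand of TAM receptors that acts in the uptake of dead cells, fell (209 ± 22.3 CPM in CKO versus 351 ± 19.4 CPM in FLOX, SD, n = 4 each; log2 fold change -0.75 with SE 0.08 and adjusted p = 9.12e-06 in edgeR). The macrophage growth factor gene Csf1 fell by 0.58 on the log2 scale (edgeR adjusted p = 5.85e-05), and Angptl4, a lipase inhibitor, by 1.40 (edgeR adjusted p = 0.000132). Angptl2, a secreted angiopoietin-like protein, rose (431 ± 8.18 CPM in CKO versus 300.1 ± 3.49 CPM in FLOX; log2 fold change 0.52 with SE 0.05 and adjusted p = 5.93e-06 in edgeR). Of 7 neutrophil markers 3 were tested and 2 rose, and the list had a sum of 3.76 to 9.22 CPM in CKO versus 1.70 to 2.80 CPM in FLOX. Those called were Ngp (log2 fold change 1.89, edgeR adjusted p = 0.000972) and S100a9 (1.55, edgeR adjusted p = 0.00183), while S100a8 was not called (0.80, edgeR adjusted p = 0.0695). Too low to test were Mpo, with 22 counts over the CKO and 4 over the FLOX libraries, and Camp, with 6 and 5. Elane and Retnlg had 0 counts in all libraries. The part of these cells in these results was not tested.

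The genes whose library profile was most like that of each member were searched among those whose log2 CPM averaged 3 or more, by the root mean square difference of centred log2 CPM over the 8 libraries. For Pdgfb these were Itprip (difference 0.08), Cchcr1 (0.10) and Il1rn (0.11), the last of which encodes the interleukin 1 receptor antagonist. For Pdgfa they were Usf2 (0.08), Emb (0.08) and Pigp (0.08), and for Igf1 Dnajc5 (0.02), Phf20 (0.03) and Ubap2l (0.03). Vegfb was nearest to Sh3bgrl3 (0.04), Edf1 (0.04) and Fau (0.04), the last of which encodes a ribosomal protein. Vegfa was nearest to Btrc (0.09), Ick (0.09) and Ap5b1 (0.10), and Osm to Hnrnpll (0.13), Hnrnpa3 (0.14) and 2610044O15Rik8 (0.15). No gene came near Hbegf, whose best matches Tsr1 (0.32), Rasgef1b (0.36) and Osgin2 (0.37) differed more than those of the other members.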

How the data were processed

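Total RNA of BMDM was sequenced as paired-end reads in 8 libraries. The submitters' processing notes name HISAT2 2.0.5, mm10 and HTSeq. The HTSeq version, its annotation and its strand mode were not given in the sources used here. The deposited values are whole-number counts per gene symbol, not normalised, 1 file per library. A table of the whole series held the same counts for all 9 genes (0 of its columns had no sample). Unassigned classes stayed out of all sums: low alignment quality took 12.2% to 18.0% of pairs, no feature 6.52% to 9.60%, multiple alignment 5.03% to 6.01%, ambiguity 1.56% to 1.69% and no alignment 0.819% to 1.19%.

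Counts were fitted in R 4.3.3 with edgeR 4.0.16: filterByExpr (minimum count 10, minimum total 15), TMM factors, robust dispersions and the quasi-likelihood F test, CKO over FLOX, with Benjamini-Hochberg adjustment over all 11519 tested genes. Standard errors (SE) were obtained from log2 fold change and F (change over root F), and 95% intervals from the t distribution on 6 degrees of freedom. Limits from a count of 0 cover counting error only. No pair of libraries within a group agreed within sampling noise (chi-square over its degrees of freedom, 2.45 to 27.9). Exon lengths and positions are from GENCODE M21 on GRCm38, the assembly of mm10. The fit was tested on simulated data.

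The members, the gene lists and the rule for named genes (all members, Opa1, Lyz2, the 4 list genes of smallest p, the ligands' receptors and the 3 most like genes per member) were chosen with earlier results of these data known. Of the marker lists, 7 lymphoid genes summed to 0.0838 to 0.370 CPM in CKO versus 0.210 to 0.227 CPM in FLOX. Alternatives were RLE and upper-quartile factors, 2 other filters, DESeq2 1.42.0, limma-voom (limma 3.58.1), libraries left out, a replicate block and removal of the 20 most abundant genes.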

Additional observations from a re-analysis of the deposited data

Results flagged for a closer look

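Pdgfb at 6.58 CPM in FLOX replicate 4 lay far below the other 3 FLOX libraries, by 0.850 of the range of the group, past Dixon's limit for 4 samples. Hbegf at 4.99 CPM in the same library lay far above the other 3 FLOX libraries, by 0.838 of the range. Over the 18 groups of 4 checked, 2 were past the limit, and chance alone gives about 1 in 20. Without this library the log2 fold change was 0.57 for Pdgfb and 1.30 for Hbegf.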

How the results depend on the processing

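Pdgfa and Pdgfb kept their direction and call in all 18 alternatives, from -0.56 to -0.44 and from 0.49 to 0.86 on the log2 scale. With each library left out in turn, the members called higher ranged from 1 to 2 and those called lower from 1 to 2, and log2 fold changes ranged from -0.19 to -0.12 for Igf1, -0.39 to -0.26 for Vegfb, 0.73 to 1.30 for Hbegf and -0.20 to 0.02 for Osm (0.0216 without CKO replicate 2). Members called higher fell to 1 with no filter (Hbegf 0.95, adjusted p = 0.112), with limma-voom (Hbegf 0.96) and with FLOX replicates 3 and 6 both left out (Hbegf 0.69, Vegfb -0.13, Igf1 -0.25). With CKO replicate 2 and FLOX replicate 6 both left out 1 member was called lower (Vegfb -0.29, adjusted p = 0.052), and Osm reversed to 0.0388. DESeq2 called Igf1 lower (-0.16). The log2 difference of the Vegfa/Vegfb ratio reversed to -0.10 without FLOX replicates 3 and 6. That of Pdgfb/Pdgfa stayed between 1.04 and 1.35. The causes of these changes were not tested.

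Replicate numbers 6 and 7 occur in both groups, and the labels do not say what the numbers stand for. The deviations of same-numbered libraries correlated at 0.14 and -0.07, and those of differently numbered libraries at -0.30 to 0.24. These values cannot tell whether same-numbered samples share more than a number. All other numbers occur in 1 group only, so with the number as a replicate block the group difference rests on replicates 6 and 7 of both groups. That fit leaves 1 residual degree of freedom. In it 1518 genes were called lower, against 2492 without the block, and the 4 called members kept their calls, Hbegf with a log2 fold change of 1.60. The HIF list then had 7 genes higher and 1 lower, against 9 and 4. Low counts, 30 to 141 per library, limit Hbegf and Osm, and counts of 0 or 1 limit Tgfa and Lif.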

Other observations

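Calls in the insulin-like growth factor axis changed with the FLOX libraries used. With FLOX replicates 3 and 6 left out, the libraries that the second principal component parted from the other FLOX libraries, 4 of the 5 tested genes of that list were called lower in CKO, against 1 with all libraries. Over all genes 3017 of 11707 tested were called lower in that setting, against 2492 of 11519 with all libraries. The fifth gene of the list, Igfbp4, which encodes an IGF binding protein, was not called and changed sign, with a log2 fold change of 0.15 in that setting (edgeR adjusted p = 0.0624) and -0.07 with all libraries (edgeR adjusted p = 0.641). Irs2 then had a log2 fold change of -0.94 (edgeR adjusted p = 2.91e-05), Insr -0.39 (edgeR adjusted p = 0.00061) and Igf2r -0.32 (edgeR adjusted p = 0.000224). Hgf, the gene of hepatocyte growth factor, had a log2 fold change of -0.68 in that setting (edgeR adjusted p = 7e-06) and -0.36 with all libraries (edgeR adjusted p = 0.119). Nrp2, a co-receptor gene, had -0.39 in that setting (edgeR adjusted p = 2.37e-05) and -0.20 with all libraries (edgeR adjusted p = 0.11). These genes were picked after their values were seen, and 2 FLOX libraries remain in that setting. The libraries left out stood apart in these same values, so the adjusted p-values of that setting are not independent support.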
